A study of Ictidomys tridecemlineatus with 15 samples.

Results

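The step from the entrance into torpor (Ent) to early torpor (ET) was examined in the liver of the 13-lined ground squirrel, using 6 of the 14 GRO-seq libraries with counts, 3 from Ent animals and 3 from ET animals. The members were taken by their state alone, and every one of the 6324 transcribed units of the count table was compared between them. The series covers 5 states of the hibernation year in 15 samples, namely summer active (SA), interbout aroused (IBA), Ent, ET and late torpor (LT). The second LT sample, which the study removed, has no column and was not used here. Each library came from the frozen liver of a different female from one breeding colony, and body temperature transmitters placed in the animals assigned the state. Both groups carried the same implants and were kept without food in a cold, dark hibernaculum. Ent animals were caught while the body was still cooling after an arousal. ET animals had reached the low body temperature of torpor shortly before. The 3 ET animals were collected in a season that contributed no animal of any other state and the Ent animals in other seasons, so season and state cannot be told apart.

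Hibernators alternate between torpor, in which the body cools to near the surroundings and metabolism is deeply depressed, and brief arousals in which the body is warm. GRO-seq (global run-on sequencing) captures RNA polymerases that are engaged on genes: nuclei are isolated, the polymerases are allowed to extend their transcripts briefly at a warm temperature in the presence of a labeled nucleotide, and the labeled RNA is sequenced. The count on a gene body therefore reflects how many engaged polymerases it carried in the frozen tissue, and not how fast they moved at the temperature of the animal. Because each library was scaled to its own total, a fall or rise of transcription on all genes together would not be visible. In whole liver, fewer cells of a type and less nascent RNA per cell cannot be told apart.

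A unit was a gene body as the study redefined it from the reads, without the stretch next to the start site, on the HiC_Itri_2 genome. Where transcription called in any of the 5 states ran past the annotated 3′ end, the study moved the unit's end there. The study also reports polymerases further past gene ends in ET than in Ent. Counts on such units can therefore include sequence downstream of the annotated gene, which the counts do not separate. Of the units, 4396 carried 1 gene name, 309 carried only an annotation number and 1619 spanned several overlapping genes that the study merged. The first 2 kinds, 4705 units, are called single-gene units below. Total counts were 6345826 to 7697181 in the Ent libraries and 4819193 to 6740437 in the ET libraries. Levels are given as CPM, the count of a unit relative to the TMM-scaled total of its library, in the order of replicates 1, 2 and 3, and 1 CPM corresponded to 5.09 to 7.58 reads in these libraries. Fold changes are ET over Ent on the log2 scale with the standard error of the fit, and adjusted p-values (Benjamini-Hochberg, over all 6324 units) come from the quasi-likelihood test of edgeR. A unit is said to have risen or fallen where that adjusted p was 0.05 or less. The study's threshold of 0.001 is named for only some of the units that met it.

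Relative to the scaled totals of their libraries, many units had more or fewer counts in ET than in Ent, and the falls were the larger. At an adjusted p of 0.05, 970 units rose (15.3% of those tested) and 849 fell (13.4%), with a median log2 change of 0.70 among the rises and -0.98 among the falls. The Ent and ET libraries did not overlap in 945 of these rises and 804 of these falls. Over all units, ET lay wholly above Ent in 22.6% and wholly below in 20.7%. At least 2-fold changes were seen in 160 rises and 407 falls. Only 7 units rose at least 4-fold, whereas 98 fell that much, and 22 fell at least 8-fold against 0 rises in this edgeR fit. The largest rise was that of PPP3R1_like, and the largest fall that of a unit with U1 small nuclear RNA genes. At the threshold of 0.001, 64 units rose (1.01%) and 76 fell (1.2%), together 2.21% of all units. Among single-gene units 1.13% rose and 1.17% fell at that threshold, together 2.3%. At 0.05, 15.4% of single-gene units rose and 13.8% fell, the shares beside which the counts of the gene lists below stand.

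The threshold of 0.001 rested on having all 6 libraries. Without Ent replicate 1, 0 rises and 0 falls remained under it, with 1110 and 1056 units at an unadjusted p of 0.05 in edgeR. The counts of rises and falls were 0 and 7 without Ent replicate 2, 15 and 49 without Ent replicate 3, 3 and 3 without ET replicate 1, 0 and 0 without ET replicate 2, and 8 and 8 without ET replicate 3. At 0.05 the counts ranged from 630 to 863 rises and from 601 to 795 falls, with the lowest pair without Ent replicate 1. Scaling by the uniquely mapped reads of each library moved the median log2 change of all units from -0.01 to 0.10. The share of rises among the calls at 0.05 then went from 53.3% to 67.5%, and at 0.001 from 45.7% to 71.3%. All 970 rises and 624 of the 849 falls were called in the same direction under that scaling, and 0 calls changed direction.

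**Figure D1:**
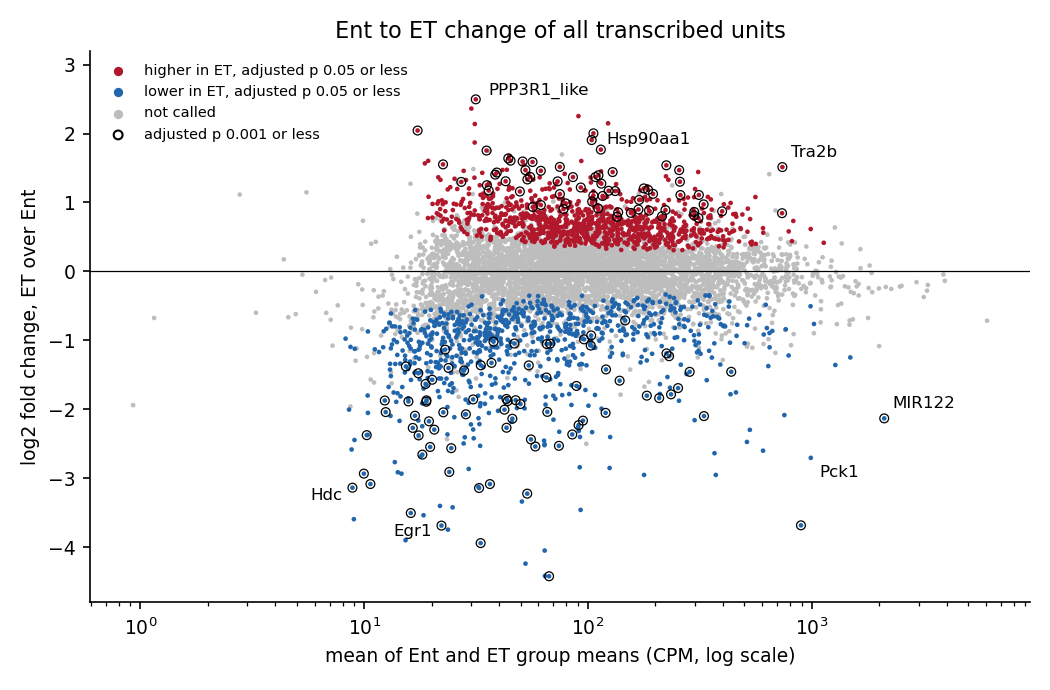
Log2 fold change from Ent to ET of each of the 6324 units (vertical axis) against the mean of the 2 group means in CPM (horizontal axis, log scale). Red and blue points passed an adjusted p of 0.05 and ringed points 0.001. The falls reach below -4 while no rise passes 3.

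The liver origin of the libraries was visible in hepatocyte genes. Apob, the structural protein of very low density lipoprotein, was among the units with the most reads, at 3525, 3930.0 and 3256 CPM in Ent and 3106, 2282 and 2892 CPM in ET. Of the 12 hepatocyte markers with a unit of their own, 7 fell and 0 rose, and their median log2 change was -0.95 against -0.02 for all single-gene units. The log2 changes of the 12 ran from -2.70, that of Pck1, to 1.41, which was not called. Pck1 is also counted among the genes of gluconeogenesis below. The summed level of these 12 markers was 10629.8 to 13084 CPM in Ent and 4606 to 9425 CPM in ET, without overlap. Markers of other liver cells were few among the units. The macrophage markers Mertk and Slc40a1 summed to 185 to 326 CPM in Ent and 167 to 203 CPM in ET, and the other 18 of the 20 macrophage markers had no unit of their own. The 6 endothelial markers with a unit summed to 275 to 319 CPM in Ent and 159 to 251 CPM in ET, and of them S1pr1 and Eng fell. The call of S1pr1 was lost without Ent replicate 1, and that of Eng without any single library other than Ent replicate 3, in limma-voom and under the uniquely mapped scaling. The 3 cholangiocyte markers summed to 462 to 603 CPM in Ent and 272 to 402 CPM in ET, and Sox9 among them fell. Rgs5 was the only stellate cell marker and Jchain the only lymphocyte marker with a unit, and for each the ranges of the groups overlapped. The part of cell type shares in the changes described below was not tested.

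Among the SR proteins and their relatives, which bind nascent transcripts and guide splice site choice, 13 of the 19 single-gene units rose and 0 fell, against 15.4% rising and 13.8% falling among all single-gene units. The median log2 change of these 19 was 0.50. Tra2b, a splicing activator whose unit lies at chr7:117858655-117891769 on the plus strand, was at 372, 376 and 403 CPM in Ent and 1260.1, 1081 and 943 CPM in ET. Every ET library was thus above every Ent library, by a mean log2 change of 1.51 ± 0.15 (adjusted p = 0.00027, edgeR). The LT libraries, at 1127 and 943 CPM, were in the range of ET. Its paralog Tra2a rose from 108, 109.6 and 123 CPM to 284, 258 and 231 CPM, and Srsf6 from 141, 163 and 142 CPM to 337, 278 and 252 CPM. The smaller rise of Srsf5, by 0.61 ± 0.12, was carried by levels of 351, 423 and 369 CPM in Ent and 617, 576 and 556 CPM in ET, again without overlap. Srsf3, Srsf10, Srsf11, Srrm1, Srek1, Rsrc2, Luc7l, Son and Scaf11 rose by 0.36 to 0.86.

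The hnRNP proteins, which coat nascent RNA and often oppose SR proteins, had 10 of 23 units rising, 0 falling and a median of 0.33. Hnrnpdl stood at 98.1, 131 and 115 CPM in Ent and 314, 399 and 286 CPM in ET, a log2 change of 1.54 ± 0.17. Hnrnpa1 rose by 1.08 ± 0.17, and the splicing and paraspeckle protein Sfpq by 0.97 ± 0.14. Hnrnpdl and Sfpq passed 0.001, as did Tardbp, Hnrnpa2b1 and Ewsr1, 5 members of the list in all. Tardbp, Hnrnpd, Hnrnpa2b1, Ewsr1, Ptbp1, Ptbp3 and Hnrnph3 rose by 0.56 to 0.88. Hnrnpc, the member with the most reads, had a log2 change of 0.18 ± 0.12 (adjusted p = 0.30, edgeR).

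Of 37 units for core spliceosome proteins, 8 rose (21.6%) and 4 fell (10.8%), against 15.4% and 13.8% of all single-gene units. Their median was 0.20, and the rises numbered 4 without Ent replicate 1. Prpf19, the scaffold of a complex that activates the spliceosome, rose by 1.19 ± 0.19, and Rbm22 and Sart3 rose by 0.91 and 0.86. Lsm4, part of the ring that binds U6 RNA, fell by 1.32 on the log2 scale, from 55.8, 45.5 and 36.9 CPM to 21.4, 14.9 and 18.8 CPM. The helicases Ddx23 and Dhx16 fell by 0.77 and 0.69, and the call of Ddx23 was lost without Ent replicate 2. Among 16 RBM proteins, 5 rose and 2 fell, with Rbm22, Rbm10 and Rbm42 leading the rises and Rbm41 and Rbm12 making up the falls, which became 1 without Ent replicate 1 or ET replicate 1. The call of Rbm41 was lost there and without Ent replicate 3 or ET replicate 3. The cold-inducible proteins Cirbp and Rbm3 had no unit of their own. Of 6 kinases that phosphorylate splicing proteins or belong to the same family, Hipk1 and Srpk1 rose by 0.63 and 0.57 and Dyrk1a fell by 0.39. The 2 rises became 1 without Ent replicate 1, Ent replicate 2 or ET replicate 2, and the call of Dyrk1a was lost whichever library was left out.

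For RNA polymerase II and its elongation factors, 5 of 20 units rose (25%) and 0 fell, against 15.4% and 13.8% of all single-gene units. The 5 rises became 3 without Ent replicate 1. In the full set the 5 were Nelfa, Gtf2h3, Ctr9, Rtf1 and Ccnt2. Nelfa, a subunit of the pausing factor NELF, had a log2 change of 0.99 ± 0.24. The call of Gtf2h3 was lost without Ent replicate 1. Cleavage, polyadenylation and termination factors gave 4 rises among 19 units (21.1%), against 15.4% of all single-gene units. The largest of the 4 was that of Pcf11 (0.51 ± 0.12), a factor that releases polymerase at gene ends. Those 4 became 1 without Ent replicate 1, 2 without each of Ent replicate 2, ET replicate 2 and ET replicate 3, and 8 under the uniquely mapped scaling. Of 16 Mediator subunits, Med7 and Med4 rose by 0.80 and 0.79 and Cdk19 fell by 0.75. These shares of 12.5% and 6.25% were below the 15.4% and 13.8% of all single-gene units. The rises became 1 without Ent replicate 1 or ET replicate 1, and the falls 0 without Ent replicate 1, ET replicate 1 or ET replicate 3 and 2 without ET replicate 2.

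**Figure D2:**
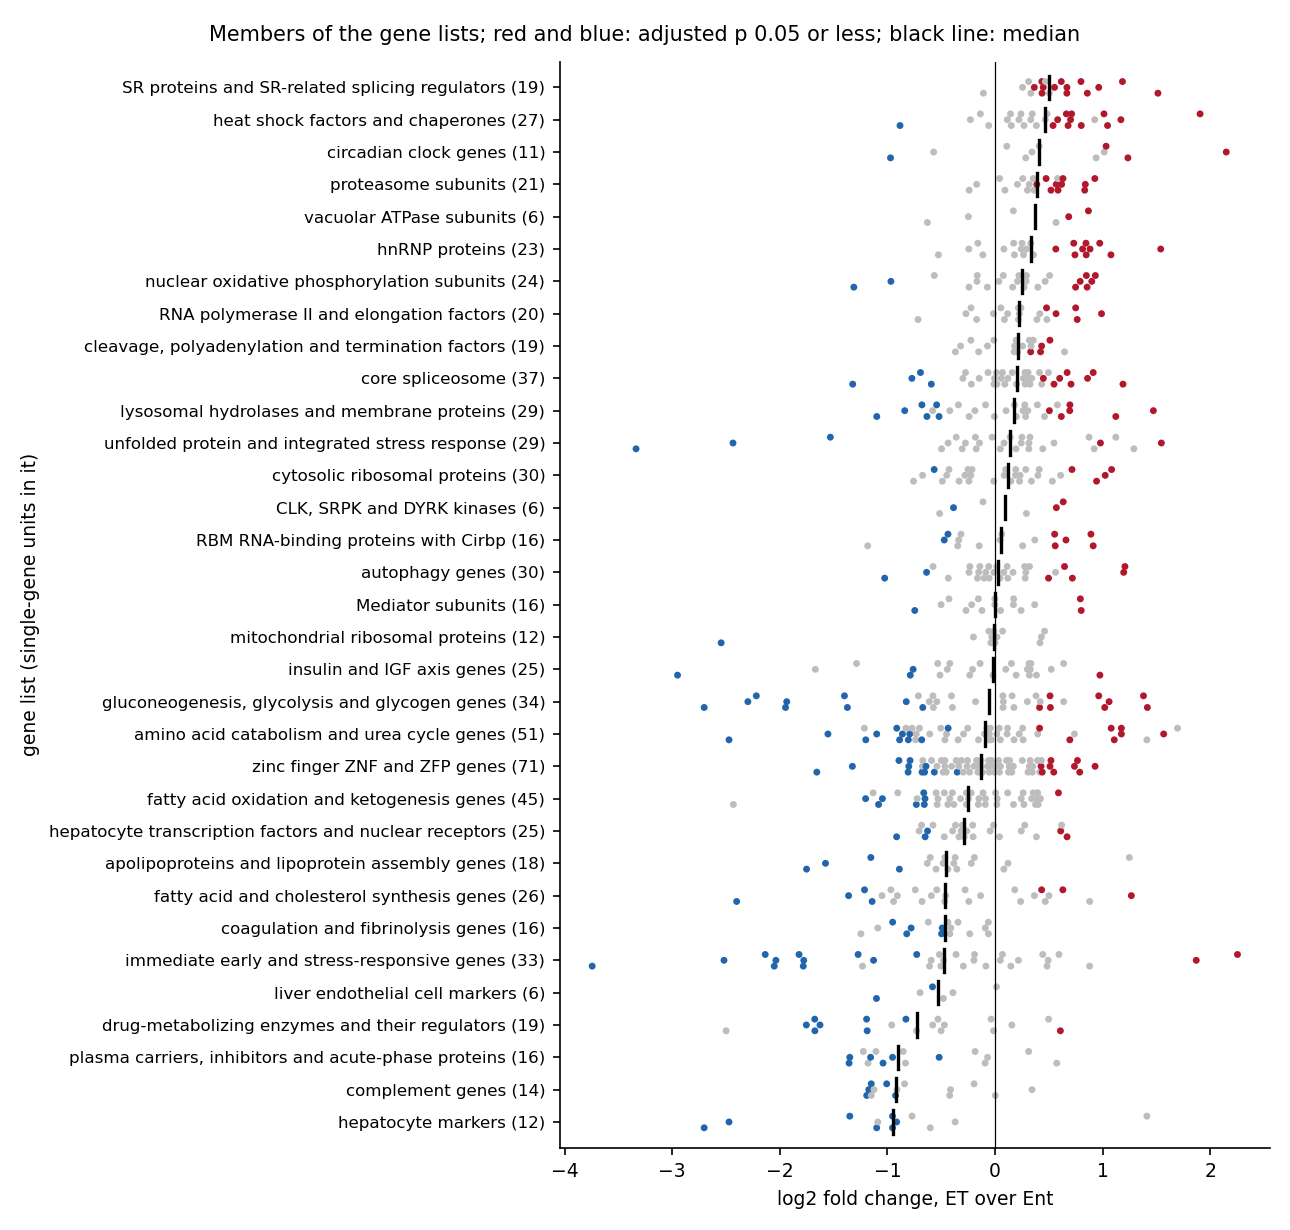
Log2 fold change from Ent to ET of the single-gene units in each gene list with at least 6 such units, with lists ordered by their median (black line) and the number of units in parentheses. Red and blue points passed an adjusted p of 0.05. Splicing regulators and chaperones stand at the top with medians of 0.50 and 0.47, and hepatocyte markers and complement genes at the bottom with -0.95 and -0.92.

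Of 27 units for heat shock factors and chaperones, 11 rose and 1 fell, with a median of 0.47. The 11 rises became 7 without Ent replicate 3 or without ET replicate 1. Hsp90aa1, the inducible HSP90, lies at chr5:3874411-3885852 on the plus strand and was at 40.7, 45.4 and 45.4 CPM in Ent and 219.6, 144 and 128 CPM in ET. ET replicate 1 was the highest, but the groups were separate in all libraries, with a log2 change of 1.90 ± 0.25 (adjusted p = 0.00048, edgeR). Hsf2, a heat shock transcription factor, rose from 66.9, 74.1 and 87.3 CPM to 158, 199 and 157 CPM and stood at 269 and 234 CPM in LT. The mitochondrial chaperonin Hspd1 rose by 1.04 ± 0.17, and the cytosolic chaperonin subunit Cct4 by 1.01. Hsp90ab1, Bag3, Chordc1, Dnaja2, Grpel1, Cct5 and Ahsa1 rose by 0.54 to 0.80. Hsf1, which drives the classic heat shock response, overlapped between the groups at 104, 120.2 and 73.8 CPM in Ent and 154, 93.5 and 127 CPM in ET (log2 change 0.33 ± 0.24, adjusted p = 0.31, edgeR). The member that fell was Dnaja3, a mitochondrial co-chaperone, by 0.88. Hspa8 had no unit of its own.

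Of 21 proteasome subunit genes, 10 rose and 0 fell, with a median of 0.39. Psmc1, an ATPase of the regulatory particle, went from 65.2, 87.2 and 93.7 CPM to 179, 133 and 155 CPM. Psmb3 and Psmd4 rose by 0.84 and 0.83. The levels of all 3 were separate between the groups, as were those of 945 of the 970 units that rose. Of 6 vacuolar ATPase units, which acidify lysosomes, Atp6v1b2 and Atp6v1g1 rose by 0.87 ± 0.15 and 0.68 ± 0.15.

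Among 29 lysosomal genes, 6 rose and 6 fell, 20.7% each way, against 15.4% rising and 13.8% falling among all single-gene units. Npc2, which hands cholesterol on inside the lysosome, rose from 23.5, 23.4 and 19 CPM to 58.6, 81.3 and 43.1 CPM, and the sialidase Neu1 from 49.4, 49 and 43.1 CPM to 120.2, 96.4 and 91.3 CPM. Npc1, the membrane partner of Npc2, fell by 0.68 ± 0.20, a call lost without Ent replicate 1, Ent replicate 2 or ET replicate 1 and under the uniquely mapped scaling. Idua and Acp2 fell by 1.10 and 0.84. The call of Idua was lost without any single library other than Ent replicate 3, in limma-voom and under the uniquely mapped scaling. That of Acp2 was lost without Ent replicate 1 or ET replicate 1. The 6 rises became 3 without Ent replicate 1, and the 6 falls became 2 without Ent replicate 1, 1 without Ent replicate 2, 2 without ET replicate 1, 3 without ET replicate 2 and 2 under the uniquely mapped scaling. Of 30 autophagy genes, 5 rose (16.7%) and 2 fell (6.67%), against 15.4% and 13.8% of all single-gene units. Gabarapl2, an ATG8-family protein of the autophagosome, and Bnip3, a mitophagy receptor, rose by 1.21 and 1.20. The protease Atg4c fell by 1.03. Without ET replicate 1 the 5 rises became 3, and Bnip3, at 650 CPM in that library and 233 and 374 CPM in the other ET libraries, was no longer called. Its call was also lost without Ent replicate 3. The 2 falls became 1 without Ent replicate 2 or ET replicate 1.

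Of 33 units for immediate early and stress-responsive genes, 11 fell (33.3%) and 2 rose (6.06%), with a median of -0.48, and the 11 became 7 without Ent replicate 3 or without ET replicate 2. Egr1, a transcription factor induced within minutes of growth and stress signals, lies at chr1:153979542-153985268 on the minus strand. Its level was 14.5, 81 and 36.9 CPM in Ent and 4.42, 0.982 and 4.15 CPM in ET, so the Ent libraries differed from one another several-fold and still lay above all ET libraries. The log2 change was -3.74 ± 0.85 (adjusted p = 0.0066, edgeR), but limma-voom did not call it. Gadd45g, a growth arrest gene, fell from 124, 81.3 and 122 CPM to 22.7, 12.8 and 21.2 CPM, and Dusp6, a phosphatase that switches off ERK, from 82.5, 76.6 and 65.5 CPM to 14.3, 11.4 and 25.2 CPM. Plk2, Zfp36l2, Myc, Zfp36l1, Dusp1, Sgk1, Irf1 and Trib1 fell by 2.05 to 0.73 on the log2 scale.

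The members of that list that rose were Csrnp1 and Dusp8. Csrnp1, a nuclear protein encoded by an immediate early gene, was at 31.5, 29 and 33.8 CPM in Ent and 244, 113 and 92.4 CPM in ET (log2 change 2.25 ± 0.35), and at 101 and 87.3 CPM in LT. Dusp8, a phosphatase of stress-activated kinases, was at 17.3, 11.5 and 11.4 CPM in Ent and 88.4, 22.4 and 36.1 CPM in ET. For both genes ET replicate 1 was the highest library, and without it the log2 changes were 1.70 and 1.12. Without ET replicate 2, 4 members of the list rose, and under the uniquely mapped scaling 4 rose and 8 fell. Klf9, the member with the most reads, had a log2 change of 0.22 ± 0.23 and was not called.

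Of 29 genes of the unfolded protein and integrated stress response, 3 fell (10.3%) and 2 rose (6.9%), both below the shares of 13.8% and 15.4% among all single-gene units. The rises became 5 under the uniquely mapped scaling and 6 with DESeq2, against 3 falls in each. Nupr1, a stress-induced chromatin protein, fell from 131, 72.9 and 77.8 CPM to 20.8, 13.6 and 17.6 CPM (log2 change -2.44 ± 0.26, adjusted p = 0.00027, edgeR). Ddit4, an inhibitor of mTORC1, was at 189.8, 39.8 and 47.3 CPM in Ent and 11.8, 6.28 and 9.1 CPM in ET. The change of Ddit4 was -3.34, and it was -2.25 without Ent replicate 1, its highest library. It was not called by limma-voom. Xbp1, the transcription factor of the unfolded protein response, fell by 1.53 ± 0.34 on the log2 scale. Ppp1r15a, which restores translation by directing dephosphorylation of eIF2α, rose from 18.6, 27.8 and 32.8 CPM to 112, 49.5 and 68.8 CPM. The disulfide isomerase Pdia3 rose by 0.98 ± 0.20, and Herpud1, the member with the most reads, was not called.

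**Figure D3:**
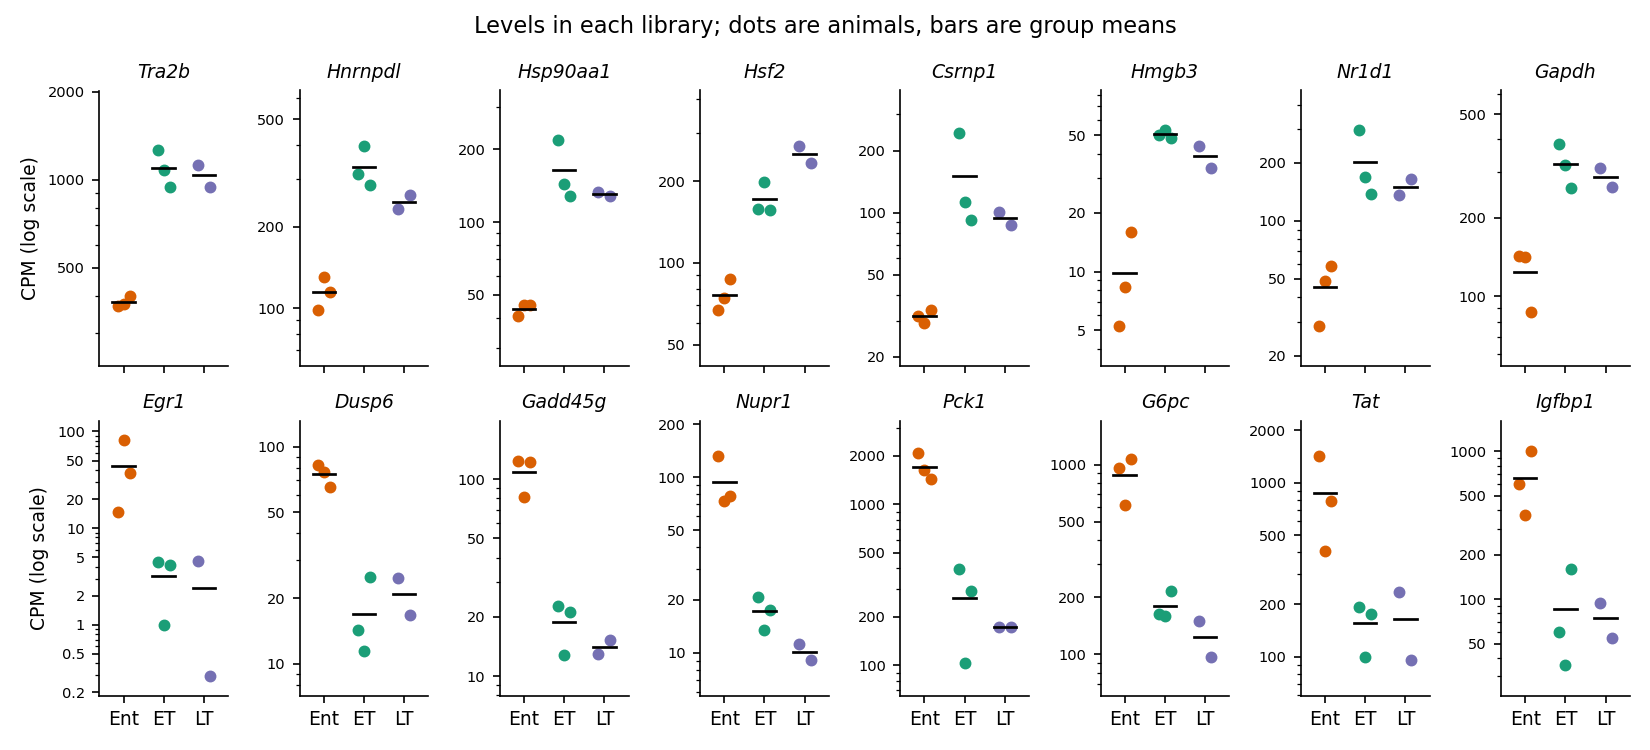
Level of 16 genes in CPM (log scale, a separate axis for each gene) in the 3 Ent, 3 ET and 2 LT libraries, each dot an animal and each bar a group mean. The 8 genes of the upper row are higher and the 8 of the lower row lower in every ET library than in every Ent library. The LT libraries lie on the same side of every Ent library as ET in each panel.

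Nr1d1, which encodes the clock repressor REV-ERBα, was at 28.4, 49 and 58.6 CPM in Ent and 296, 168 and 138 CPM in ET, a log2 change of 2.15 ± 0.56 (adjusted p = 0.013, edgeR). That call was lost without Ent replicate 1 or without ET replicate 1, and the highest adjusted p with 1 library left out was 0.057. Its paralog Nr1d2 fell from 136, 134 and 103 CPM to 56.8, 75.8 and 57.9 CPM. Csnk1d, a kinase that phosphorylates the PER proteins, rose by 1.23 ± 0.23, and the repressor Cry2 by 1.03 ± 0.25. Per2 (0.34 ± 0.23) and Clock (0.28 ± 0.14) were not called, and Per1 had no unit of its own. In all, 3 of the 11 clock genes rose (27.3%) and 1 fell (9.09%), against 15.4% and 13.8% of all single-gene units. The hours at which Ent animals were collected lay within those of the ET animals, which ran from morning to afternoon.

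Of 34 genes of gluconeogenesis, glycolysis and glycogen, 9 fell and 8 rose, with a median of -0.05, and the rises became 4 without Ent replicate 1 and 5 without Ent replicate 2 or ET replicate 1. Pck1, the cytosolic enzyme that commits carbon to glucose synthesis, lies at chr5:182936327-182944113 on the minus strand and fell from 2071, 1646 and 1432 CPM to 398, 104 and 288 CPM. The lowest Ent library was above the highest ET library, with a log2 change of -2.70 ± 0.45 (adjusted p = 0.0013, edgeR). G6pc, which releases free glucose, went from 957, 611 and 1068 CPM to 162, 158 and 216 CPM. Ppp1r3c, which targets a phosphatase to glycogen, Pdk4, which shuts down pyruvate dehydrogenase, and the liver glycogen synthase Gys2 fell by 2.22, 1.95 and 1.94 on the log2 scale. The liver glucose transporter Slc2a2 fell by 1.37.

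The 8 rises in that list were Gapdh, Pgk1, Pdhb, Pdhx, Dld, Pdk1, Phkg2 and Slc2a1. Gapdh, a glycolytic enzyme, stood at 143, 142 and 86.7 CPM in Ent and 386, 320.3 and 261 CPM in ET (log2 change 1.38 ± 0.24). Pgk1, the next enzyme in the path, rose by 1.02 and the pyruvate dehydrogenase subunit Pdhb by 0.96. Phkg2, a subunit of liver phosphorylase kinase, rose by 1.06 ± 0.23. Slc2a1, the widely expressed glucose transporter, was at 201 CPM in ET replicate 1 against 63.2 and 79.3 CPM in the other ET libraries and 45.4, 58.7 and 24.8 CPM in Ent, and its call was lost without ET replicate 1, Ent replicate 1 or Ent replicate 3. Gbe1, the branching enzyme and the member with the most reads, ranged from 1340 to 2238 CPM in Ent and from 969 to 2492 CPM in ET (log2 change -0.18 ± 0.36).

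Of 45 genes of fatty acid oxidation and ketone synthesis, 7 fell (15.6%) and 1 rose (2.22%), with a median of -0.25. Among all single-gene units 13.8% fell and 15.4% rose. The falls became 11 without Ent replicate 3, and the rises 3 under the uniquely mapped scaling. Vnn1, Eci2 and the peroxisome assembly factor Pex6 fell by 1.20, 1.08 and 1.05 on the log2 scale, and the acyl-CoA synthetase Acsl3 rose by 0.59. The call of Acsl3 was lost whichever library was left out, and without ET replicate 2 the list had 2 rises. Slc27a2, the fatty acid transporter with the most reads in the list, had a log2 change of -0.09 ± 0.21. Fgf21, a fasting hormone, was at 105, 7.11 and 6.37 CPM in Ent and 2.36, 12 and 7.98 CPM in ET. Its log2 change of -2.43 ± 0.91 did not pass (adjusted p = 0.063, edgeR) and was 0.12 without Ent replicate 1, while it was called without Ent replicate 2 or Ent replicate 3. Ppargc1a, a coactivator of oxidative metabolism, had a log2 change of 0.07 ± 0.28.

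Of 26 genes of fatty acid and cholesterol synthesis, 4 fell (15.4%) and 3 rose (11.5%), with a median of -0.46. Among all single-gene units 13.8% fell and 15.4% rose. Thrsp, a nuclear protein that promotes lipogenesis, fell from 312, 169.9 and 152 CPM to 47, 32.4 and 40.4 CPM, and its relative Mid1ip1 fell by 1.36 ± 0.26 on the log2 scale. The elongase Elovl2 fell by 1.21, a call lost without Ent replicate 2, ET replicate 1 or ET replicate 2. Mylip, a ligase that degrades the LDL receptor, Mbtps1 and Scap, both needed to activate SREBP, rose by 1.27, 0.63 and 0.43. The call of Mylip was lost without Ent replicate 1, and those of Mylip and Scap each without Ent replicate 2, ET replicate 1 or ET replicate 3, and that of Scap without Ent replicate 3. The 3 rises became 1 without Ent replicate 2, ET replicate 1 or ET replicate 3, and the 4 falls became 2 without Ent replicate 2. Lpin1, which had the most reads, ranged from 1783 to 4576 CPM in Ent and from 1832 to 3976 CPM in ET, so the groups covered the same range. Of 18 genes of lipoprotein assembly, 4 fell and 0 rose, with Apom, Abcg5 and Soat2 falling by 1.75 to 0.89. The 0 rises became 1 without Ent replicate 2 or ET replicate 2. Apob itself had a log2 change of -0.37 ± 0.21 and was not called.

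Of 51 units for amino acid catabolism and the urea cycle, 11 fell (21.6%) and 7 rose (13.7%), against 13.8% and 15.4% of all single-gene units. Under the uniquely mapped scaling 8 fell and 7 rose. Tat, the tyrosine aminotransferase that glucocorticoids and fasting induce, fell from 1423, 405 and 781 CPM to 193, 100.4 and 176 CPM (log2 change -2.47 ± 0.44). Acmsd, Dmgdh, Hal, Gls2, Glul, Kmo, Kynu, Fah, Cth and Mthfs fell by 1.55 to 0.44, with the call of Dmgdh lost without any single library other than Ent replicate 1, whereas Gcdh and Gcsh, of lysine and glycine breakdown, each rose by 1.17 and Ivd, Aass, Mccc2 and Dld by 1.11 to 0.41. Oat, which converts ornithine, was at 53 CPM in ET replicate 1 and at 16.9 and 13.7 CPM in the other ET libraries, and its log2 change of 1.57 became 0.69 without that library. Its call was lost there, without Ent replicate 1 and in limma-voom. Cps1, the entry enzyme of the urea cycle, had the most reads and was not called (log2 change -0.77 ± 0.58, adjusted p = 0.34, edgeR). The 11 falls became 7 without Ent replicate 1 or Ent replicate 2, 6 without ET replicate 2 and 5 without ET replicate 3. The 7 rises became 4 without Ent replicate 1 or without ET replicate 1.

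Of 19 drug-metabolizing enzymes and regulators, 7 fell and 1 rose (median -0.73). ADH1B, an alcohol dehydrogenase, fell from 385, 664 and 1072 CPM to 207, 133 and 289 CPM. UGT2B15 and CYP2C8 fell by 1.68 and 1.67 on the log2 scale. Both belong to families of similar genes, and reads that fit more than 1 member may have gone uncounted. Aldh2, of the second step of alcohol breakdown, rose by 0.61 ± 0.16, a call lost without Ent replicate 1 or ET replicate 1. Among 14 complement genes, 5 fell and 0 rose (median -0.92), led by Masp1 at -1.19 ± 0.22, and the 5 became 3 without Ent replicate 3, ET replicate 2 or ET replicate 3. All 16 coagulation genes had a negative log2 change and 5 of them fell, including Proc, the precursor of the anticoagulant protein C, at -0.95 ± 0.22 and Plg, the precursor of the clot-dissolving enzyme plasmin, at -0.82 ± 0.17. Those 5 became 3 without Ent replicate 3, without ET replicate 2, with total counts as library size, or under the uniquely mapped scaling. Of 16 plasma carriers and acute-phase proteins, 6 fell and 0 rose (median -0.90), and the 6 became 3 without ET replicate 3. Under the uniquely mapped scaling 5 fell and 2 rose. Ttr, the carrier of thyroid hormone and retinol-binding protein, fell from 751, 519.6 and 412 CPM to 223, 262 and 176 CPM, and Selenop, the selenium carrier, from 2223, 914 and 2364 CPM to 891, 596 and 659.6 CPM. The call of Selenop was lost without Ent replicate 1, Ent replicate 3, ET replicate 2 or ET replicate 3. A2m and Serpina7 had log2 changes of -1.11 and -1.22 and were not called.

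Of 25 transcription factors and nuclear receptors of the hepatocyte, 3 fell (12%) and 2 rose (8%). Both shares were below the 13.8% and 15.4% of all single-gene units. Hnf4a, a master regulator of hepatocyte genes, fell from 958, 732 and 703 CPM to 502, 346 and 419.9 CPM (log2 change -0.92 ± 0.17), and the groups were separate. Nr5a2 and Stat5b fell by 0.63 and 0.65, the latter not called without Ent replicate 1 or ET replicate 1, and the thyroid hormone receptor Thra rose by 0.61. The call of Thra was lost whichever library was left out. Zbtb20, with the most reads, was at 2748, 2592 and 2760.1 CPM in Ent and 2364, 2623 and 2026 CPM in ET and was not called (log2 change -0.21 ± 0.16). In the insulin and IGF axis, 3 of 25 genes fell (12%) and 1 rose (4%), also below the shares of all single-gene units. Igfbp1, a secreted IGF-binding protein that insulin represses, fell from 600.4, 371 and 1009 CPM to 59.6, 35.5 and 160.4 CPM. Grb14 and Fnip2 fell by 0.79 and 0.76, the latter called in the full set and without ET replicate 3 but not without another library, the translation inhibitor gene Eif4ebp2 rose by 0.97 ± 0.19, and Foxo1 (0.64 ± 0.32) was not called. The single rise became 2 without Ent replicate 3 or ET replicate 3 and 3 without ET replicate 2, and under the uniquely mapped scaling 4 genes rose and 2 fell. Arrdc3 (-1.23 ± 0.60) and Txnip (-0.20 ± 0.37) were not called.

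Of 24 nuclear genes of oxidative phosphorylation, 6 rose (25%) and 2 fell (8.33%), against 15.4% and 13.8% of all single-gene units. Atp5o and Atp5a1 of the ATP synthase rose by 0.93 ± 0.18 and 0.90 ± 0.13, and Atp5g2 of the same enzyme fell by 1.31 ± 0.26. Of 30 cytosolic ribosomal protein genes, 4 rose (13.3%) and 1 fell (3.33%), both below the shares among all single-gene units. Rpl15, Rplp1, Rpl34 and Rpl22 rose by 1.08 to 0.71, and Rpl31 fell by 0.57. The single fall became 2 without ET replicate 2 and 0 without any other single library or under the uniquely mapped scaling. Many ribosomal protein genes have processed copies in mammalian genomes, and reads that fit both may have gone uncounted. Of 12 mitochondrial ribosomal protein genes 1 changed, which was Mrpl14. It fell from 41.6, 24.2 and 35.3 CPM to 5.15, 4.71 and 7.34 CPM (log2 change -2.55 ± 0.25, adjusted p = 0.00027, edgeR). Of 71 zinc finger genes, 9 rose (12.7%) and 11 fell (15.5%), near the 15.4% and 13.8% of all single-gene units. Znf672 (0.93) and Znf594 (-1.66) were at the ends. The 11 falls became 7 without Ent replicate 2 or under the uniquely mapped scaling.

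Among the named single genes that passed 0.001 with separate groups, 50 rose and 33 fell. PPP3R1_like, a gene resembling the regulatory subunit of calcineurin at chr12:15887919-15893473, rose from 6.2, 10.3 and 12 CPM to 53.2, 65 and 42.5 CPM (2.50 ± 0.28). Jpt1 rose by 2.04 ± 0.26 from 5.94, 5.90 and 8.45 CPM in Ent to 34.2, 26.5 and 23 CPM in ET. Slc25a29, a mitochondrial carrier of basic amino acids, stood at 42.9, 40.7 and 43.1 CPM in Ent and 200.3, 194 and 114 CPM in ET. Its relative Slc25a38, a glycine carrier of heme synthesis, rose by 1.55, and the mitochondrial transcription factor gene Mterf2 by 1.61. Gmnn, an inhibitor of DNA replication licensing, Rpn1, of the oligosaccharyltransferase, Bzw2, a regulator of translation, and PIGA, of glycolipid anchor synthesis, rose by 1.47 to 1.59. Hmgb3, a chromatin protein, rose from 5.28, 8.31 and 15.9 CPM to 50.1, 52.8 and 48.4 CPM (2.36 ± 0.38, adjusted p = 0.0012, edgeR). A merged unit with Hmgb1, of the same family, rose by 1.77 ± 0.26 and passed 0.001.

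The 12 named genes with the largest falls that met these conditions included Nupr1, Mrpl14 and Dusp6. Hdc, which makes histamine, fell from 22.3, 18.3 and 7.26 CPM to 1.77, 0.982 and 2.55 CPM, and Bad, a promoter of apoptosis, from 25.9, 20.3 and 6.82 CPM to 2.36, 1.77 and 2.71 CPM. At such ET levels each library held fewer than 20 reads on the unit. Adcy1, an adenylyl cyclase, spans chr2:101099306-101265804 and went from 46.7, 39.3 and 39.9 CPM to 7.95, 4.32 and 8.78 CPM. Cldn1, a tight junction protein, Cnih3, Lgals2, GALM_like, GSTA3_like and NAT8B_containing fell by 2.04 to 2.66 on the log2 scale.

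Beyond the gene lists, a few further units were picked out after their values were seen. The unit that holds MIR122, the precursor of the most abundant microRNA of hepatocytes, lies at chr13:30803030-30832439 on the minus strand and had 3384, 3355 and 3554 CPM in Ent, 667, 756 and 927 CPM in ET and 262 and 345 CPM in LT. Its log2 change was -2.13 ± 0.25 (adjusted p = 0.00028, edgeR), with a range of -2.27 to -2.03 as each library was left out. A unit with 2 metallothionein genes (MT1G_like and MT2A_like), whose products bind zinc and copper, fell from 1599.7, 1062 and 2318 CPM to 74.2, 90.9 and 223 CPM. CYP8B1, of bile acid synthesis, fell from 30.4, 35.2 and 20.6 CPM to 1.91, 0.982 and 2.71 CPM though limma-voom did not call it, and G0s2, an inhibitor of fat breakdown, by 2.95 ± 0.63. Slc10a1, the bile acid importer of the hepatocyte, fell from 349.6, 282 and 344 CPM to 85.1, 92.1 and 95.8 CPM. Its unit, at chr5:61216569-61236604 on the plus strand, lies within the interval of Srsf5 on the minus strand (chr5:61214434-61238715), and the 2 changed in opposite directions, by -1.84 and 0.61.

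The lowest log2 change of the comparison, -4.42 ± 0.47, was that of a merged unit with 2 U1 small nuclear RNA genes, whose product recognizes the 5′ splice site. It lies at chr7:32577361-32585929 and was at 116, 130.3 and 138 CPM in Ent and 4.86, 2.95 and 9.89 CPM in ET. U1 genes exist in near-identical copies, so reads that fit more than 1 copy may have gone uncounted and the assignment of others is uncertain. Another merged unit, G35346:G35347, fell by 3.69 ± 0.44, and one with Pithd1 and Lypla2 rose by 1.33 ± 0.16.

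Units known only by an annotation number behaved differently from named genes. Of the 309, 122 fell (39.5%) and 19 rose (6.15%), with a median of -0.68, against 12% falling, 16.1% rising and a median of -0.002 for the 4396 named genes. They made up 42 of the 98 units that fell at least 4-fold. Under the uniquely mapped scaling, 110 fell and 26 rose. G9560, of 2527 nt, fell from 64.7, 87.5 and 34.7 CPM to 6.48, 2.75 and 2.71 CPM, and G8002 from 45.8, 29.8 and 13.6 CPM to 3.24, 1.57 and 2.87 CPM. In both the Ent libraries were spread more than 2-fold and lay above every ET library. G5881 and ENSSTOG00000030929 rose by 1.75 ± 0.24 and 1.64 ± 0.18. These units were shorter, with a median length of 13707 nt against 38003.5 nt for named genes.

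The changes depended on the length of the unit. Among single-gene units under 10 kb, 110 of 378 fell (29.1%) and 50 rose (13.2%). Between 10 and 30 kb, 358 of 1643 rose (21.8%) and 256 fell (15.6%), and between 30 and 100 kb, 309 of 1881 rose (16.4%) and 211 fell (11.2%). Above these lengths few units rose: 7 of 532 between 100 and 200 kb (1.32%) and 1 of 271 at 200 kb or more (0.369%), whereas 54 and 20 of them fell. Named genes alone gave the same order, with 22.4% falling under 10 kb and 0.373% rising at 200 kb or more. The 8 rises at 100 kb or more were Mapk8, Lnpep, Tnpo1, Kidins220, Usp47, Pacsin2, Dmxl2 and Cadps2. The median size of the log2 change, without its sign, was 0.65 under 10 kb and 0.22 at 200 kb or more, and the median standard error was 0.27 and 0.18. Under the uniquely mapped scaling, 22 of the 803 units of 100 kb or more rose and 42 fell, against 927 and 437 of the 3902 shorter ones.

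**Figure D4:**
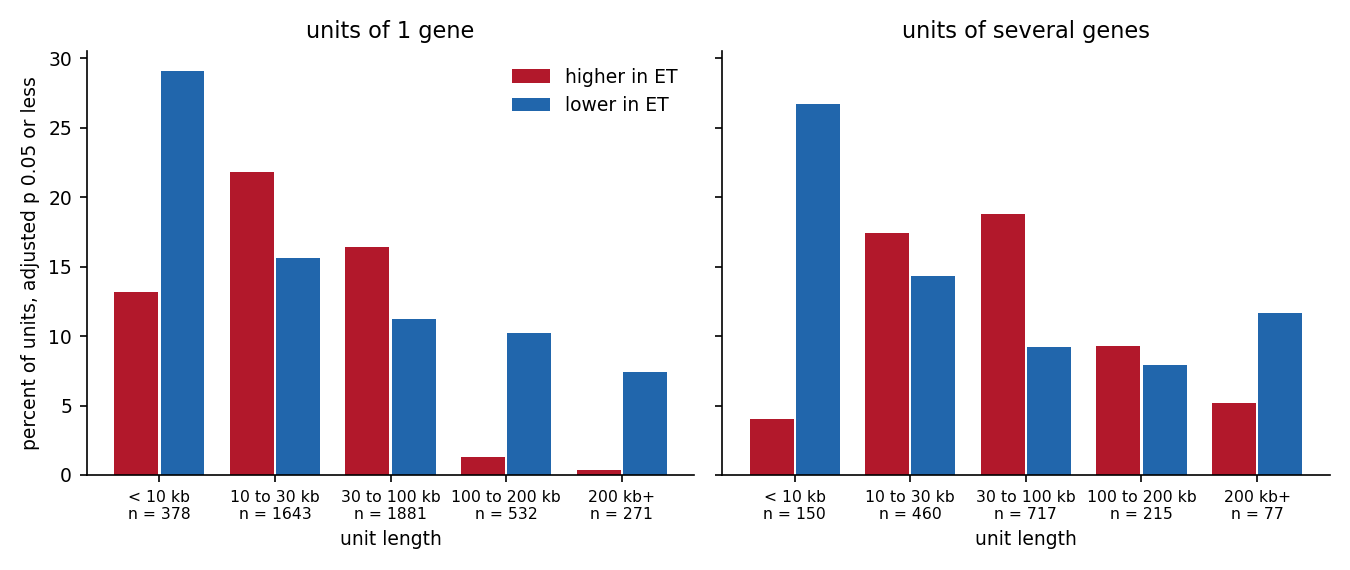
Percent of units that rose (red) or fell (blue) from Ent to ET at an adjusted p of 0.05, by the length of the unit, for units of 1 gene and for merged units of several genes, with the number of units under each pair of bars. In units of 1 gene the rises peak at 21.8% between 10 and 30 kb and reach 0.369% at 200 kb or more, while falls peak at 29.1% under 10 kb.

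Merged units showed the length dependence less steeply. Under 10 kb, 40 of 150 fell (26.7%) and 6 rose (4%), but between 100 and 200 kb 20 of 215 rose (9.3%). The position of a neighbor was examined because polymerases that run past the end of a gene can enter the next one. Genes that overlapped once the study had extended their ends are in the merged units. They are not in the classes below, so these shares cannot show how far such entry contributed, which was not tested. Of 440 single-gene units whose nearest upstream unit lay on the same strand within 20 kb, 13.9% rose and 14.1% fell. The shares were 17.3% and 16% for the 808 with such a neighbor on the other strand, and 15.2% and 13.3% for the 3457 with none. Within 5 kb the same-strand class of 119 units gave 12.6% in each direction.

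The direction of change was compared with that in animals that are in neither group. From IBA to LT, which uses 5 other libraries, 958 of the 970 units that rose from Ent to ET also had a positive log2 change, and 858 of them passed an adjusted p of 0.05. Of the 849 that fell, 836 had a negative change and 718 passed. For scale, 83.2% of all units had the same sign in both contrasts, and 49.8% of all units passed from IBA to LT in either direction. The IBA and LT animals also came from different seasons, and all 14 libraries entered a single fit with shared scaling and dispersion. The only called unit that passed in the opposite direction was Cadps2, a regulator of vesicle release with a unit of 506760 nt. It was at 187, 216 and 229 CPM in Ent and 314, 340.0 and 345 CPM in ET, with a log2 change of 0.66 from Ent to ET and -0.61 from IBA to LT. Hmgb3 had the largest positive log2 change from IBA to LT among the genes described here, at 4.08, and Tra2b, Hsp90aa1, Egr1 and Pck1 had 2.09, 2.17, -5.04 and -3.15.

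**Figure D5:**
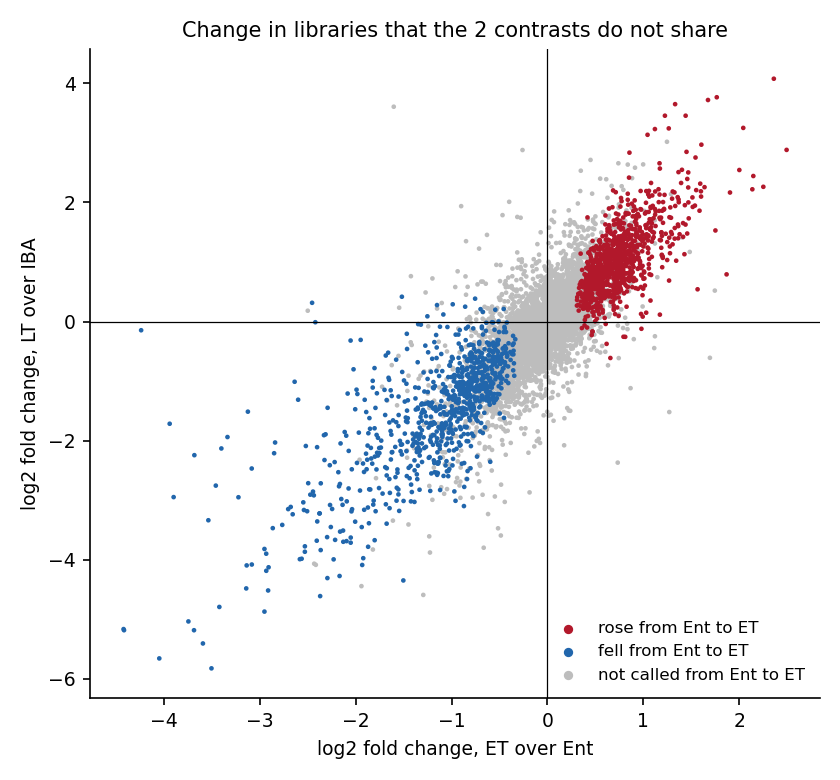
Log2 fold change from IBA to LT (vertical axis) against that from Ent to ET (horizontal axis) for all 6324 units, with units that rose or fell from Ent to ET at an adjusted p of 0.05 in red and blue. Of the red points 958 of 970 lie above 0, and of the blue points 836 of 849 lie below it.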

How the data were processed

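The deposited table holds whole-number counts of reads, 1 row a unit and 1 column a library, with no normalization applied. Per the study's methods and the labels, the authors trimmed reads with cutadapt, aligned them to HiC_Itri_2 with BWA, rebuilt gene bodies with fstitch, merged overlapping genes, and counted uniquely aligned reads with featureCounts. Whether counting used strand is not given in the sources used here. The file also gives unit length and position in bases. Libraries were prepared in parallel.

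All 14 libraries and 6324 units were fitted with edgeR 4.0.16 (TMM, quasi-likelihood with legacy deviances, one mean per state, no filter), and Ent was contrasted with ET. DESeq2 1.42.0 and limma 3.58.1 were alternatives, as were other scalings, filters, a replicate block and leaving out each library. The code was tested on simulated data. For 1 scaling, library sizes were the uniquely mapped reads in the study's sample table. Genes were named by rule: the 12 largest named single-gene rises and falls at an adjusted p of 0.001 with groups that did not overlap, 2 numbered and 2 merged units in each direction, up to 3 rises and 3 falls at 0.05 and the member with the most reads of each of 37 lists, and fixed genes. Further list members are named to complete a list's calls. The members and lists were chosen with earlier results of these data known. Replicates were separate animals. Columns of per-sample values left unmapped numbered 0. Some results are not reported here.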

Additional observations from a re-analysis of the deposited data

How the results depend on the processing

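At an adjusted p of 0.001 the counts of 64 rises and 76 falls depended on the method. They were 527 and 410 with the DESeq2 Wald test and 13 and 39 with a replicate block. With the uniquely mapped reads as library size 174 units rose, and 70 fell. Fitting the Ent and ET libraries alone gave 0 rises and 0 falls in edgeR, with 1208 and 1211 units at an unadjusted p of 0.05 and 699 and 696 at an adjusted p of 0.05. Leaving out 1 library gave 0 to 15 rises and 0 to 49 falls. The threshold of 0.05 gave 970 and 849, of which 160 and 407 were at least 2-fold. At 0.05, leaving out 1 library gave 630 to 863 rises and 601 to 795 falls, DESeq2 1167 and 1016, limma-voom 1017 and 812, and the replicate block 851 and 787. Each other planned scaling, filter or unit set kept all 4 counts within 1.5 times. Same-numbered Ent and ET libraries correlated at 0.16, -0.24 and 0.12 in their deviations from the group means, and not every library correlated best with its own number, so the numbers were not taken to pair animals. Of 1980 values of named units under alternatives, 1786 kept direction and call, 154 were no longer called, 8 became called and 32, in units not called, changed sign. With 3 animals a group and a season that differs between them, small changes of low units were not detectable.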
